A study of Homo sapiens with 12 samples.

Results

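The genes described here are those whose symbol is ZNF followed by a number, the commonest naming stem of human zinc finger genes. They were taken by name from the deposited expression tables of 2 cancer cell lines, leaving out hyphenated names of antisense and readthrough transcripts, and no measured value entered the choice. The rule found 337 genes among the 12372 listed in either table. Of these, 286 were among the 11070 genes listed for the gastric line 23132/87 and 294 among the 11554 listed for the colorectal line SW48. Both tables held 243 of them, 43 were listed only for 23132/87 and 51 only for SW48. Each table held 7 names of pseudogenes, such as ZNF37BP.

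The study measured polyadenylated transcripts by stranded RNA sequencing in 2 established lines, both labelled wild type: 23132/87, from a gastric adenocarcinoma, and SW48, from a colorectal adenocarcinoma. Each line received 10 µM myricone C, which the series title calls a neolignan of Myristica fragrans, the nutmeg tree, or the vehicle, 0.1% DMSO. All cells were collected at 48 h, with 3 biological replicates in each of the 4 groups. Each tumour type is represented by 1 line, and the compound by 1 dose and 1 time. All 5 epithelial markers looked up (EPCAM, CDH1, KRT8, KRT18 and KRT19) were listed in both lines. Of 5 gastric markers only TFF1 was listed in 23132/87, where TFF2, GKN1, CLDN18 and MUC5AC were absent from the list, and none was listed in SW48. Of 5 intestinal markers CDX2 and LGR5 were listed in SW48, without CDX1, VIL1 or GPA33, and CDX2 and VIL1 in 23132/87. Of the leukocyte markers PTPRC, CD3E, LYZ and CD68, CD68 was listed in 23132/87 and none in SW48, and of 5 mesenchymal markers COL1A1 in 23132/87 and ACTA2 in SW48. The listed markers moved with treatment too: of the epithelial 5, 4 fell and 1 rose in 23132/87 and 4 rose in SW48, and CD68 rose in 23132/87 from 5.53 ± 1.38 to 14 ± 0.948 (SD, n = 3). Their part in the results was not tested.

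Most ZNF genes encode proteins with tandem C2H2 zinc fingers, small folds held by a zinc ion that read DNA bases. Many of these proteins also carry a KRAB domain, which recruits the corepressor TRIM28 (KAP1), and TRIM28 in turn brings the histone methyltransferase SETDB1, HP1 proteins and DNA methylation to the bound site. KRAB zinc finger genes expanded by local duplication, stand in clusters with many on chromosome 19, and are best known for silencing transposable elements and guarding imprints. The ZNF symbol also covers proteins of other kinds, among them the ribosome quality control ligase ZNF598, the spindle protein ZNF207, the activator ZNF143 and the actin-associated LIM protein ZNF185. Bulk RNA cannot tell a change in the share of cells expressing a gene from a change in its RNA per cell.

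The promoters of 6 members, picked by hand and not by a rule, carry the patterns described below and are shown first. They do not stand for all members or for the largest changes. The largest rises, ZNF449 in 23132/87 and ZNF165 in SW48, are not among them. Windows of 300 bases, from 250 before to 50 after the annotated gene start, were taken from RefSeq on GRCh38.p14, which held 283 of the 337 members. ZNF841 (chr19:52095716-52096015, minus strand) and ZNF181 (chr19:34733993-34734292, plus strand) were among the largest rises in 23132/87. ZNF598 (chr16:2009772-2010071, minus strand) rose in both lines and ZNF367 (chr9:96418321-96418620, minus strand) fell in both. ZNF430 (chr19:21020407-21020706, plus strand) and ZNF431 (chr19:21141790-21142089, plus strand) are neighbours that rose in SW48. Capitals mark a match to CCGGAAG or its complement CTTCCGG, the core letters bound by ETS factors, or to TTCCCGC or its complement GCGGGAA, letters of an E2F site. No marked match overlaps another.
ZNF841: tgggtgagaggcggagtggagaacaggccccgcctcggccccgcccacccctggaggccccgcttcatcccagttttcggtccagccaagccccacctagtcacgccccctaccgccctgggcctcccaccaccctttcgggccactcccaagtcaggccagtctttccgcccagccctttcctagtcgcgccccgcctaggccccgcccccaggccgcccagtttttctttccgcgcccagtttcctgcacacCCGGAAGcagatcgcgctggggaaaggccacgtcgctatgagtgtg
ZNF181: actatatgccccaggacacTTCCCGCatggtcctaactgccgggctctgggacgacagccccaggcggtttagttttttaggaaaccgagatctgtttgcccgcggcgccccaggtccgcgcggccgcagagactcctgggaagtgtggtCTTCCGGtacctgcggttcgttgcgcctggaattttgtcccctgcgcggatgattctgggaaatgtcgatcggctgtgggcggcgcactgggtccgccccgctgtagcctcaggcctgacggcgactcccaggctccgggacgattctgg
ZNF598: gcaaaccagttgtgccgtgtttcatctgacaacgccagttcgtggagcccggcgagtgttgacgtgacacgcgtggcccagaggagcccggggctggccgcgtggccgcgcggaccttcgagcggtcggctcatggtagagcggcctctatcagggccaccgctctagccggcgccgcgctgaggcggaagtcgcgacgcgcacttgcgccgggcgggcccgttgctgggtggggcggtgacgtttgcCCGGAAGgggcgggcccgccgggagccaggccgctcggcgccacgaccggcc
ZNF367: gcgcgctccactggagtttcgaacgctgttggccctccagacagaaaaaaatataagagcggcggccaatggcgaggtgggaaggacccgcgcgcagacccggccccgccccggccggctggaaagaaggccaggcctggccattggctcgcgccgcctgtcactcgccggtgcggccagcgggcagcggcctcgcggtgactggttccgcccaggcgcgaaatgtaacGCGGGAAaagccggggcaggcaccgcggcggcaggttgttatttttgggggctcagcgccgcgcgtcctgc
ZNF430: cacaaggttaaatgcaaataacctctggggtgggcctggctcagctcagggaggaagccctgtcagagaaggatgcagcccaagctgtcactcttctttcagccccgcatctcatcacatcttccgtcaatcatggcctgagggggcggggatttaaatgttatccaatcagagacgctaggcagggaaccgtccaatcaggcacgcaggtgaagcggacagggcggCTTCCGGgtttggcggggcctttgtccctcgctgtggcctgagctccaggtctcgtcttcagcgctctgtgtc
ZNF431: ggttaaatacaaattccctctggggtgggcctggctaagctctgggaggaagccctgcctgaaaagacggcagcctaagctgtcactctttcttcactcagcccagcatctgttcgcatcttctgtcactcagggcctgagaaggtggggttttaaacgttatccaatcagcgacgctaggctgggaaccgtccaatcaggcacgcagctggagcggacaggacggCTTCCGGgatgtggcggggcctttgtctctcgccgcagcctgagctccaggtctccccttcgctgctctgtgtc

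The ETS letters stood in 40.3% of the 283 member promoters, in 20.4% of the 9709 promoters of all listed genes, and in 10.7% of all 27305 windows. Their share was alike in members that rose in 23132/87 (41.8% of 98) and in members with no call there (43.0% of 128), and 2 of 13 members that fell held them. Among the windows printed, the ETS letters began at base 4 after the start in ZNF841, 2 bases before it in ZNF598, 100 before in ZNF181, and 23 and 24 before in ZNF430 and ZNF431. The E2F letters with a C stood in 11.7% of member promoters and in 10.6% of listed genes. They stood 21 bases before the start of ZNF367, which fell in both lines, and further upstream in ZNF181, which rose in 23132/87. In that line they stood in 4 of 13 members that fell, 6 of 98 that rose and 17 of 128 with no call. In SW48 they stood in 3 of 19 members that fell, 0 of 24 that rose and 25 of 204 with no call. The letters with a G, TTGGCGC (complement GCGCCAA), stood in 1 of 13 members that fell in 23132/87. They stood in 7 of 98 that rose and 2 of 128 with no call. Whether these letters go with the falls was not tested. The letters of a composite ATF4-C/EBP site, TGATGCA (complement TGCATCA), were in 1 of 283 member promoters (0.353%) and in 1.25% of those of listed genes. ZNF430 and ZNF431 matched at 258 of 306 aligned positions (84.3%), while the other pairs of printed promoters matched at 47.6% to 53.4%. A match of letters is a description and not a measured binding site, and member promoters had a median GC content of 62% against 65.3% for listed genes.

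The authors' values are called signal here, because the unit is not stated. They resemble FPKM or TPM, which adjust for sequencing depth and transcript length, and comparisons of level between genes hold only if they do. ZNF genes were low. The median vehicle level of the 286 members in 23132/87 was 4.58, with a range of 1.08 to 87.9, against a median of 12.8 over all listed genes. In SW48 it was 5.57 (1.28 to 89.9) against 12.4. No listed value lies below 1 in either table, so a member near 1 had little room to fall: the vehicle mean was below 2 for 34 members in 23132/87 (11.9%, against 4.53% of all genes) and for 27 in SW48 (9.18% against 3.62%). Genes that were silent in either condition are not listed. Many ZNF genes are recent copies of each other, and the authors' counting of shared reads is not given in the sources used here, so values of close copies such as ZNF33A and ZNF33B, ZNF37A and ZNF37BP, or ZNF417 and ZNF587 are uncertain.

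Library by library, the summed signal of the members took 0.366%, 0.370% and 0.375% of the table in the vehicle libraries of 23132/87 and 0.550%, 0.467% and 0.454% in the myricone C libraries. The groups did not overlap. In SW48 the shares were 0.433%, 0.468% and 0.429% with vehicle and 0.465%, 0.514% and 0.492% with myricone C, and myricone C replicate 1 lay below vehicle replicate 2. In that library 7SL and small nuclear RNA genes made up 5.25% of the summed signal, against 0.0477% to 0.201% in the other SW48 libraries. The part of that in the results was not tested. Without that library 31 SW48 members were called higher and 23 lower (10.5% and 7.82%, all genes 11.5% and 20.1%). With it 30 were higher and 22 lower (10.2% and 7.48%, all genes 10.1% and 19.2%). Total signal listed per library ranged from 464037 to 536594, and read depth is unknown.

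In 23132/87 cells ZNF genes were more often higher than lower with myricone C. At an adjusted p under 0.05 (limma, Benjamini-Hochberg over all genes of the table), here "called", 113 of the 286 members rose (39.5%), against 23.3% of all 11070 genes. Only 16 fell (5.59%), against 23.2% of all genes. The share called in either direction was close to the background, 129 members (45.1%) against 46.5%, so the members' calls differed from the background in direction and hardly in number. The median log2 change was 0.30 (quartiles 0.03 and 0.55, range -1.74 to 1.64), against 0.01 over all genes, and 222 members (77.6%) lay above 0, against 51.3% of all genes. All 3 myricone C libraries lay above all 3 vehicle libraries for 140 members (49.0%, background 28.9%) and below them for 22 (7.69%, background 27.9%). Changes were mostly small: 14 called members had a log2 change of 1 or more in size, and 153 had an unadjusted p under 0.05. The count called was 98 without vehicle replicate 2, its lowest on leaving out any library, and 124 without vehicle replicate 3, its highest. In these runs 30.4% and 37.8% of members rose, against 18.1% and 22.0% of all genes. The shares that fell were 3.85% and 5.59%, against 17.6% and 22.2%.

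**Figure D1:**
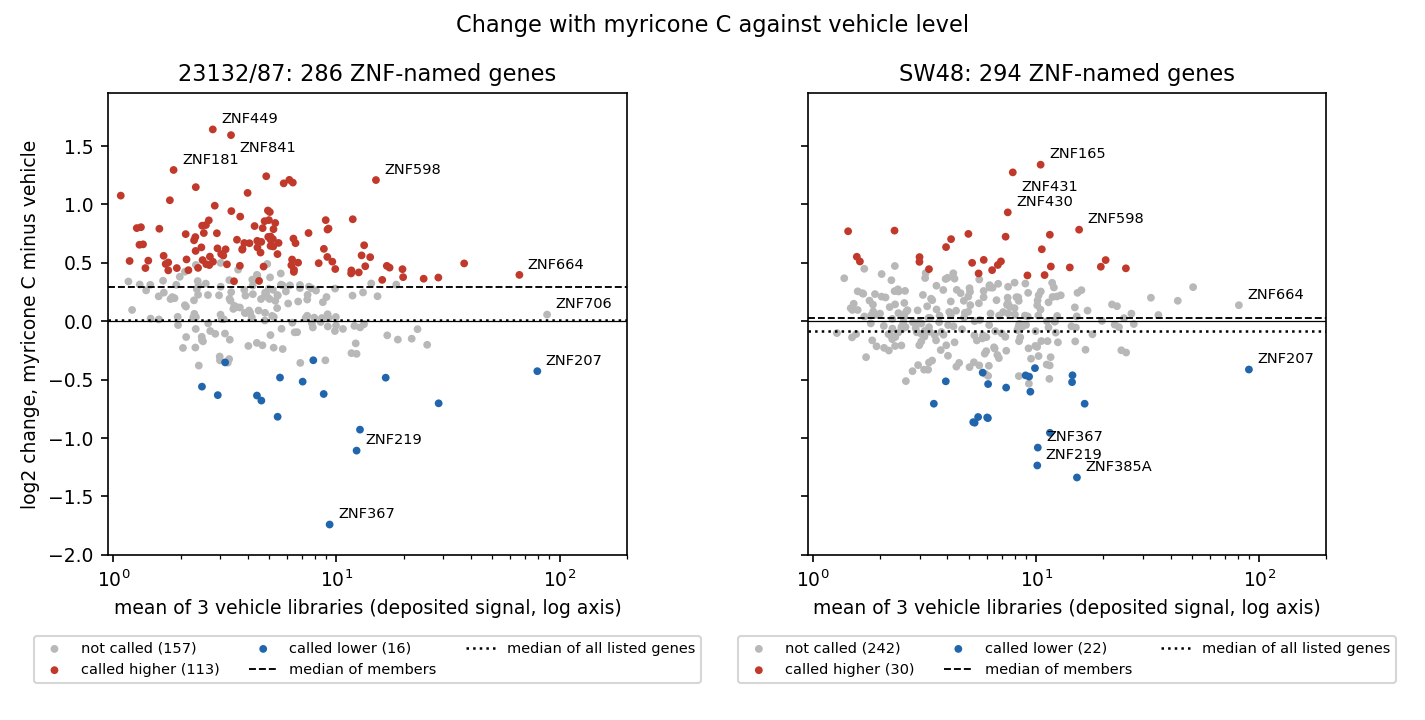
Log2 change with myricone C (vertical, log2(signal + 1) scale) against the mean signal of the 3 vehicle libraries (horizontal, log axis) for each ZNF-named gene, with 23132/87 left and SW48 right. Red and blue points passed the adjusted p of 0.05 upward and downward, and the dashed and dotted lines are the medians of the members and of all listed genes. In 23132/87 the median of the members is 0.30. By vehicle mean it is 0.34 below 3, 0.27 from 3 to 10 and 0.25 at 10 or more. In SW48 the median of the members is 0.03.

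The 6 largest rises in 23132/87 reached more than the doubling that 1 stands for on the log2 scale. ZNF449, a SCAN domain zinc finger gene on chromosome X (135344796 to 135363152, plus strand, GENCODE 29 on GRCh38), was at 2.94, 2.60 and 2.83 in the vehicle libraries and at 12.6, 10.9 and 9.16 in the myricone C libraries. Its log2 change was 1.64 ± 0.14 (SE, n = 3 per group, limma adjusted p = 1.8e-05), and every treated library lay above every vehicle library. The KRAB gene ZNF841 (chromosome 19, 52064466 to 52095765) was at 3.23, 2.96 and 3.92 with vehicle and 15.5, 11.4 and 10.0 with myricone C, a change of 1.59 ± 0.17. In SW48 ZNF841 was not called (0.47 ± 0.19, adjusted p = 0.0847), though it was called higher there under quantile normalization (0.54) and median-centred scaling (0.56), without vehicle replicate 2 (0.64) and without treated replicate 1 (0.61). ZNF181, also a KRAB gene of chromosome 19, went from 1.37, 2.20 and 2.01 to 6.18, 6.24 and 5.50 (1.30 ± 0.15). For both genes the treated libraries of 23132/87 stood clear of the vehicle libraries. ZNF277, whose protein has been described as a partner of the Polycomb protein BMI1, was at 5.59, 6.71 and 6.15 with vehicle and 17.5, 13.5 and 15.8 with myricone C (1.21 ± 0.13). ZNF165, a testis antigen gene expressed in tumours, was at 4.19, 4.79 and 5.55 with vehicle and at 23.5, 10.7 and 8.06 with myricone C. Its change of 1.24 ± 0.30 was carried unevenly, since replicate 1 lay far above the other treated libraries. ZNF598 is described with its role below. The next largest rises, chosen after their values were seen, were those of ZNF83 (1.19), ZNF558 (1.18) and ZNF550 (1.15), all on chromosome 19.

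The 16 falls in 23132/87 included genes outside the KRAB class. ZNF367, a transcription factor gene also known as ZFF29 (chromosome 9, 96385941 to 96418329, minus strand), fell most. It was at 10.9, 8.44 and 8.60 with vehicle and 2.58, 1.87 and 1.81 with myricone C, a log2 change of -1.74 ± 0.15 (SE, n = 3 per group, limma adjusted p = 2.17e-05). ZNF219, a zinc finger partner of SOX9, was at 13.9, 13.7 and 9.30 with vehicle and 3.67, 5.71 and 6.21 with myricone C (-1.11 ± 0.20). In neither gene did the groups overlap. ZNF672 changed by -0.93 ± 0.13, ZNF503, a corepressor of the NET family, by -0.82 ± 0.18, ZNF511 by -0.70 ± 0.10 and the KRAB gene ZNF92 by -0.68 ± 0.13, all called. ZNF207, among the highest members in both lines, was at 79.0, 79.7 and 79.8 with vehicle and 66.0, 55.0 and 56.1 with myricone C (-0.43 ± 0.10, adjusted p = 0.00566). The other highest members went elsewhere: ZNF664 rose from a mean of 66.1 ± 6.55 to 87.1 ± 3.66 (SD, n = 3), a log2 change of 0.40, and ZNF706 was at 87.9 ± 5.2 and 91.6 ± 6.70 without a call (0.06 ± 0.10, adjusted p = 0.652).

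**Figure D2:**
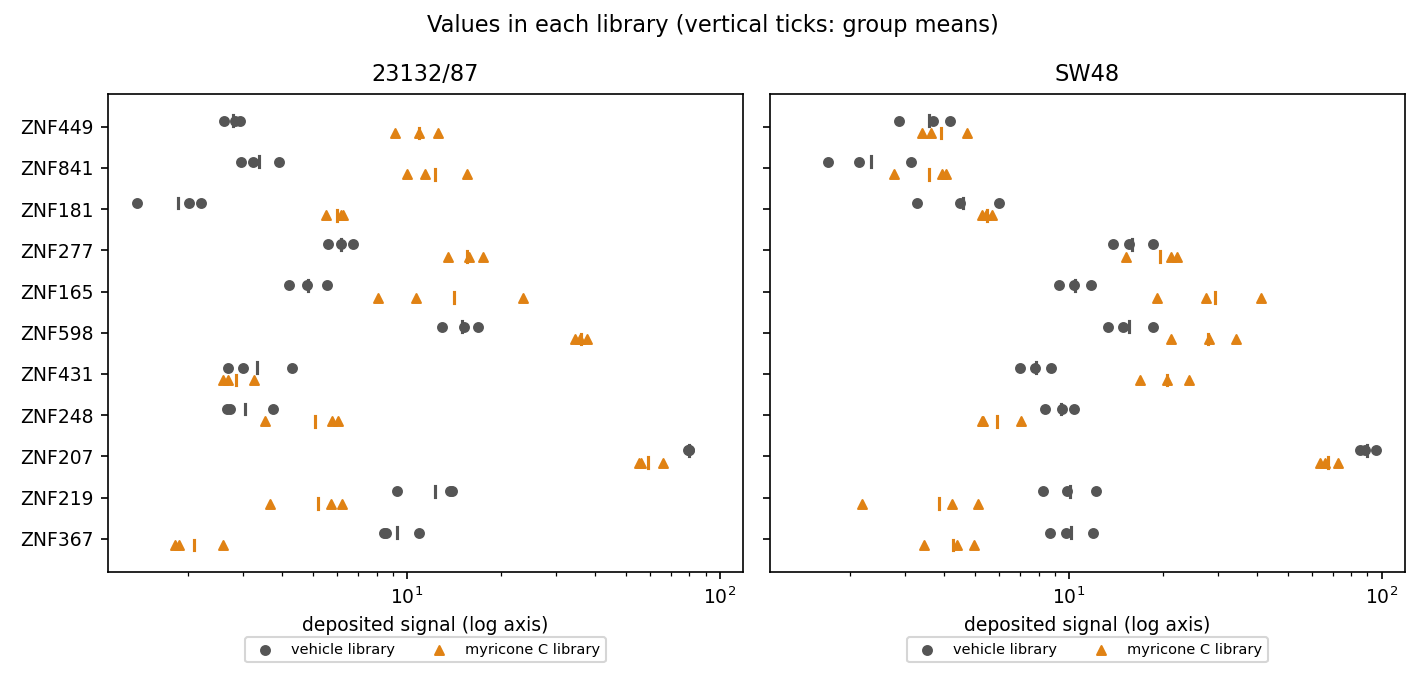
Signal (log axis) of 11 ZNF-named genes in each of the 12 libraries, with vehicle libraries as grey circles, myricone C libraries as orange triangles and group means as vertical ticks. ZNF598 and ZNF165 are higher with myricone C in both lines, ZNF367, ZNF219 and ZNF207 are lower in both, and ZNF449, ZNF841, ZNF181 and ZNF431 have non-overlapping groups in 1 line and overlapping groups in the other, with a called difference between lines for each of these 4.

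In SW48 the same family, taken over all its listed members, showed no such excess of rises over the background. Of 294 members 30 rose (10.2%), against 10.1% of all 11554 genes, and 22 fell (7.48%), against 19.2%. In either direction 52 were called (17.7%), against 29.3%, so ZNF genes were called less often than listed genes at large, mostly through fewer falls. The median log2 change was 0.03 (quartiles -0.17 and 0.22), against -0.08 over all genes, and 155 members (52.7%) lay above 0 against 41.3% of all genes. All treated libraries lay above all vehicle libraries for 62 members (21.1%, background 16.8%) and below them for 36 (12.2%, background 28.4%), and 81 members had an unadjusted p under 0.05. Rises made up 57.7% of the calls as deposited, against 34.6% over all genes. Quantile normalization gave 72.2% (39 higher, 15 lower) against 46.2%, and centring each library on its median ratio gave 77.4% (41 higher, 12 lower) against 49.1%. Under both, the share of members that rose (13.3% and 13.9%) stayed at that of all genes (13.1% and 13.8%). The counts rest on few libraries. They were 25 (13 higher, 12 lower) without treated replicate 2, 26 (13 and 13) without vehicle replicate 3 and 33 (16 and 17) without treated replicate 3. The share of members that rose was then 4.42%, 4.42% and 5.44%, below the 6.65%, 7.02% and 7.23% of all genes. The share that fell was 4.08%, 4.42% and 5.78%, against 12.4%, 13.1% and 15.7%. Without vehicle replicate 1 the count higher was 18 (6.12%, all genes 8.12%). Without vehicle replicate 2 the count lower was 14 (4.76%, all genes 15.2%).

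The largest rise in SW48 was that of ZNF165, at 9.27, 11.8 and 10.4 with vehicle and 19.2, 41.0 and 27.5 with myricone C, a log2 change of 1.34 ± 0.22 (SE, n = 3 per group, limma adjusted p = 0.00134). Close to it came ZNF431, a KRAB gene of chromosome 19 (21142024 to 21196053, plus strand), at 8.78, 6.98 and 7.80 with vehicle and 16.9, 24.1 and 20.6 with myricone C (1.27 ± 0.15, adjusted p = 0.000285). Its neighbour ZNF430 went from 7.26, 7.40 and 7.71 to 11.4, 20.7 and 14.6 (0.93 ± 0.18). In each of these 3 genes every treated library lay above every vehicle library. ZNF678 rose from a mean of 2.32 ± 0.54 to 4.63 ± 0.0406 (SD, n = 3), a log2 change of 0.78. ZNF674 was at 1.26, 1.89 and 1.16 with vehicle and 1.74, 4.33 and 3.79 with myricone C. Its groups overlapped, and its call (0.77 ± 0.24, adjusted p = 0.0317) was lost when vehicle replicate 1 (0.72) or 3 (0.69), or treated replicate 2 (0.58) or 3 (0.66), was left out.

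The largest fall in SW48 was that of ZNF385A, which encodes an RNA-binding protein that is also a p53 cofactor, at 14.7, 18 and 13 with vehicle and 6.71, 4.44 and 5.16 with myricone C (log2 change -1.34 ± 0.17 SE, n = 3 per group, limma adjusted p = 0.000328). ZNF219 was at 12.2, 9.88 and 8.27 with vehicle and 5.14, 2.18 and 4.23 with myricone C (-1.24 ± 0.23), and ZNF367 at 9.82, 8.71 and 12.0 and then 4.99, 3.44 and 4.40 (-1.08 ± 0.16). The LIM protein gene ZNF185 was at 9.77, 12.9 and 11.9 with vehicle and 5.90, 5.64 and 4.78 with myricone C (-0.96 ± 0.15). The groups of all 4 genes lay apart. ZNF738 (-0.87 ± 0.17) and the KRAB gene ZNF69 (-0.86 ± 0.19) fell as well. ZNF207 was at 88.5, 85.3 and 95.8 with vehicle and 65.9, 72.6 and 63.3 with myricone C (-0.41 ± 0.11, adjusted p = 0.0157). Quantile normalization ended that call (-0.30), as did leaving out the third library of either group (-0.37 each). ZNF664 (81.0 ± 7.36 and 88.9 ± 1.8) and ZNF146, a gene of fingers without a KRAB domain (50.5 ± 4.45 and 62.2 ± 7.93, SD, n = 3), were the other 2 highest members and were not called (adjusted p = 0.373 and 0.104). ZNF146 was called higher in SW48 under quantile normalization (0.38) and without treated replicate 1 (0.38), and it rose in 23132/87 from 37.4 ± 2.58 to 53.3 ± 7.27 (log2 change 0.49).

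Grouped by vehicle level, the rises in 23132/87 were found among low and high members alike. With a vehicle mean below 3, 38 of 85 members rose (44.7%, against 31.9% of all genes of that class) and 2 fell. Between 3 and 10, 57 of 160 rose (35.6%, against 28.5%) and 9 fell (5.62%, against 13.8%). At 10 or more, 18 of 41 rose (43.9%) against 19% of all genes, and 5 fell (12.2%) against 31.8%. The vehicle value is part of the change itself, so a class set on it favours rises among low genes. Classes set on the mean over the 6 libraries gave 16 of 64 members higher below 3 (25%, all genes 15.9%), 67 of 169 from 3 to 10 (39.6%, all genes 25.8%) and 30 of 53 at 10 or more (56.6%, all genes 23.1%), so by that scheme the share rose with level. In SW48 the members that rose numbered 6 of 72 below 3 (8.33%, all genes 11.5%), 14 of 151 from 3 to 10 (9.27%, all genes 10.6%) and 10 of 71 at 10 or more (14.1%, all genes 9.60%), and those that fell 0, 14 and 8, the last 11.3% against 26.0% of all genes. By the mean over 6 libraries 14 of 67 SW48 members at 10 or more rose (20.9%, all genes 12.0%) and 5 fell (7.46%, all genes 23.9%).

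**Figure D3:**
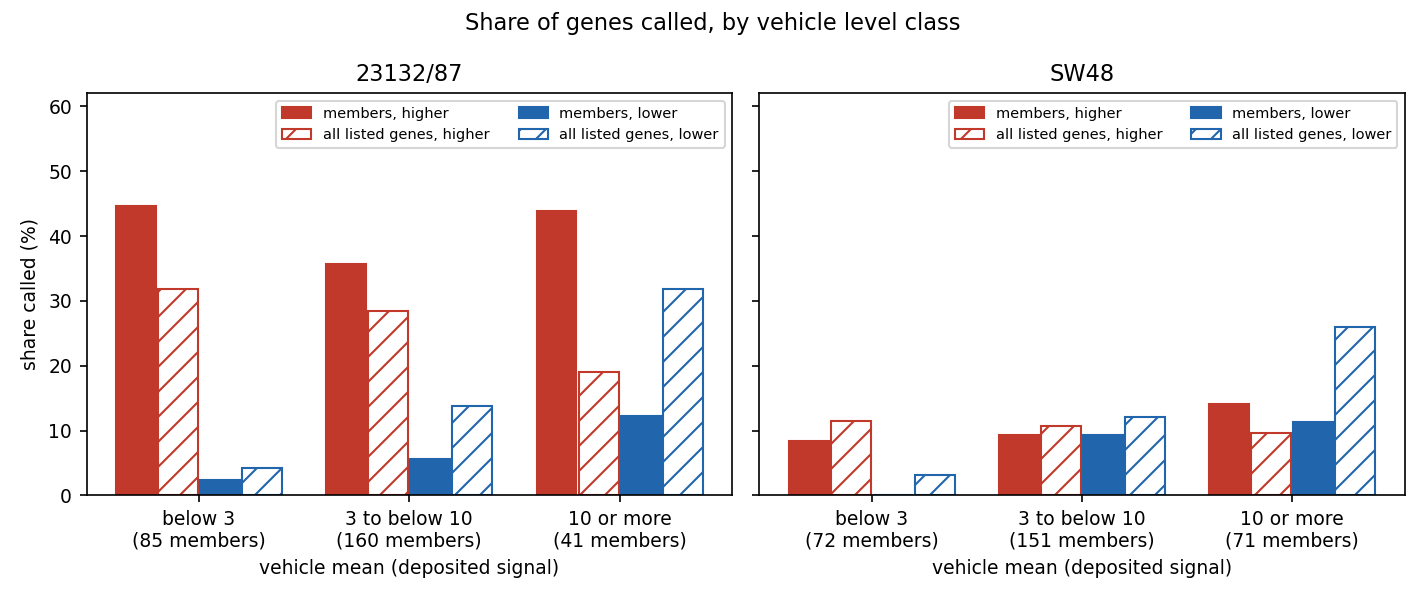
Share of genes called higher (red) and lower (blue) with myricone C in 3 classes of vehicle mean, for ZNF-named genes (filled bars) and all listed genes of the class (hatched bars), with 23132/87 left and SW48 right. In 23132/87 the filled red bars stand at 35.6% to 44.7% in every class while the hatched ones fall from 31.9% to 19%, and in both lines the filled blue bar at 10 or more is lower than the hatched one.

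Transcript composition moved with the rises in 23132/87. Split by the GC content of the longest coding transcript of each listed gene, 62 of the 129 members in the lowest tertile rose (48.1%, against 28.8% of all genes there), 38 of 85 in the middle (44.7%, against 24.4%) and 11 of 68 in the highest (16.2%, against 16.3%). In the highest tertile 9 members fell (13.2%, against 28.3% of all genes). Members had a median transcript GC content of 45.1% in this table against 48.5% for all genes, and a median length of 3754 bases against 3229. In SW48 the shares that rose were 11.8%, 9.20% and 5.97% from the lowest to the highest tertile, against 10.9%, 10.2% and 9.27% of all genes. The part of GC content in the changes was not tested.

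Members of chromosome 19, which held 133 of the 333 members with an annotated position, numbered 115 in the 23132/87 table, of which 48 rose (41.7%) and 2 fell, ZNF69 and ZNF653. On the other chromosomes 63 of 167 rose (37.7%) and 14 fell. Over all genes of chromosome 19, 19.1% rose and 25% fell. In SW48, 8 of 99 chromosome 19 members rose (8.08%, all genes there 7.75%) and 6 fell (6.06%, all genes 22.1%). Elsewhere 20 of 191 rose (10.5%, all genes 10.3%) and 16 fell (8.38%, all genes 19%), so the rises in SW48 were at the background in both. Neighbouring members less than 500 kb apart formed 20 clusters of at least 4, holding 179 members. Clusters were set by name and distance alone. Neighbours that arose by copying are not independent of each other, and which members did so was not tested.

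Several clusters held rises and no falls in 23132/87, where 39.5% of all members rose and only 5.59% fell. Over all genes there 23.3% rose and 23.2% fell. In SW48 10.2% of all members rose and 7.48% fell, against 10.1% and 19.2% of all genes. On chromosome 10 (37776526 to 38150293), ZNF248, ZNF25, ZNF33A and ZNF37A all rose, with a median log2 change of 0.72. In SW48 ZNF37A rose, ZNF248 fell and the median was -0.09. In the chromosome 19 cluster from ZNF414 to ZNF562 (8509678 to 9675086), 7 of 10 rose and none fell, against 1 of 9 in SW48. From ZNF576 to ZNF180 (43596392 to 44500524) 6 of 10 rose and none fell, and in SW48 none of 7 rose and 1 fell. The cluster at the end of the long arm, ZNF264 to ZNF446 (57191500 to 58481230), had 13 of 27 rising and none falling in 23132/87 and 1 of 23 rising in SW48. From ZNF613 to ZNF331 (51927147 to 53580269) 21 of 22 members were listed in 23132/87, where 10 rose and none fell, but only 6 were listed in SW48, where 1 rose. The tables were filtered separately, and an unlisted gene need not be silent.

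Other clusters went otherwise. From ZNF653 to ZNF791 on chromosome 19 (11483427 to 12640098) 3 of 13 rose and 2 fell in 23132/87, with a median of -0.03, and 3 of 17 fell in SW48 with a median of -0.26. The cluster of ZNF430 and ZNF431 (21020620 to 21767628) was listed mostly in SW48. Of its 7 members there, ZNF430 and ZNF431 rose and ZNF738 fell, and of the 2 listed in 23132/87 neither was called. On chromosome 7 (64519884 to 65401135) 3 of 6 members fell in SW48, ZNF92, ZNF107 and ZNF273, and 1 of 2 in 23132/87, ZNF92.

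**Figure D4:**
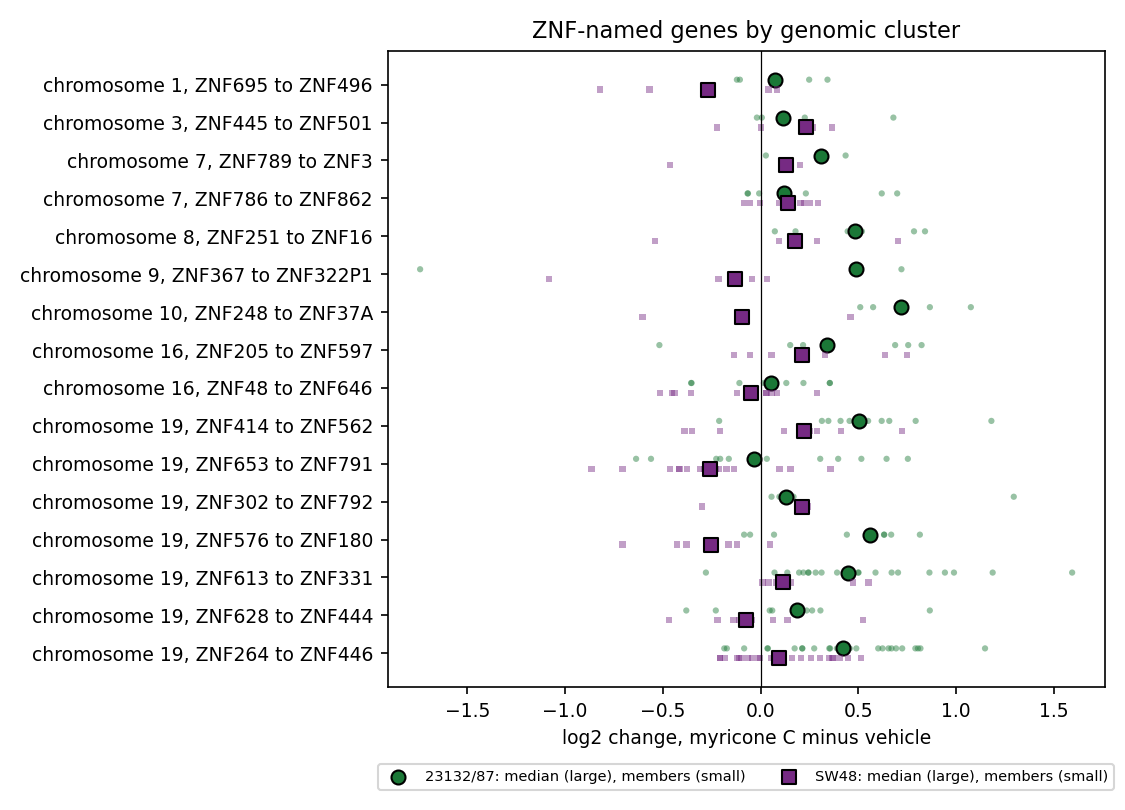
Log2 change with myricone C of ZNF-named genes in 16 genomic clusters with at least 3 members listed in each line, named by their first and last gene. Small symbols are genes, large symbols are cluster medians, green circles are 23132/87 and purple squares are SW48. The median was higher in 23132/87 in 13 of the 16 clusters, and the widest gaps are on chromosome 10 and from ZNF576 to ZNF180 on chromosome 19.

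Across the 243 members in both tables, 19 rose in both lines (7.82%, background 7.14% of 10252 genes) and 7 fell in both (2.88%, background 12.0%). Those that rose in both were ZNF16, ZNF165, ZNF202, ZNF213, ZNF252P, ZNF37A, ZNF37BP, ZNF410, ZNF432, ZNF562, ZNF581, ZNF587B, ZNF598, ZNF621, ZNF623, ZNF75A, ZNF77, ZNF770 and ZNF800. Those that fell in both were ZNF207, ZNF219, ZNF367, ZNF672, ZNF689, ZNF69 and ZNF92. The SW48 call of ZNF672 (-0.40) was lost under both other scalings (-0.35 and -0.32) and on leaving out any vehicle library or treated replicate 2 or 3 (-0.43 to -0.35). That of ZNF92 (-0.52) was lost under median-centred scaling (-0.44) and on leaving out vehicle replicate 2 or 3 or treated replicate 2 or 3 (-0.54 to -0.43). A further 72 rose in 23132/87 with no call in SW48, 122 had no call in either, and ZNF248 rose in 23132/87 and fell in SW48. The changes in the 2 lines had a Pearson r of 0.56 across these 243 genes, which share libraries and were not independent, against 0.63 across all 10252 genes.

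Fitted over all 12 libraries, the change in SW48 minus that in 23132/87 was called for 27 members (11.1%, background 12.8%). It was below 0 for 23 (9.47%, background 7.43%) and above 0 for 4 (1.65%, background 5.34%). The median difference was -0.20 against -0.09 for all genes, so both medians lay below 0. Of the 243 members 184 lay below 0, a count that was not taken for all genes. Of the 23, 20 had risen in 23132/87 without a call in SW48, ZNF248 had gone opposite ways, and ZNF185 and ZNF385A had fallen in SW48 only. Differences above 0 made up 14.8% of the members' calls as deposited, 29.4% after quantile normalization (5 above, 12 below) and 30.0% with median-centred libraries (6 above, 14 below), against 41.8%, 54.5% and 59.3% over all genes. The share of members called below 0 did not stay above the background: it was 4.94% against 5.43% of all genes after quantile normalization and 5.76% against 5.06% with median-centred libraries. The count below 0 was 15 without vehicle replicate 2 of 23132/87, 12 without vehicle replicate 2 of SW48, which left 15 calls in all, and 15 without vehicle replicate 3 of SW48. Those counts were 6.17%, 4.94% and 6.17% of members, against 5.10%, 4.54% and 5.48% of all genes. The differences of ZNF367 and ZNF672 were not called as deposited but were called above 0 in some runs. For ZNF367 these were median-centred scaling (0.75), a pseudocount of 0.1 (0.88) and leaving out treated replicate 1 of 23132/87 (0.77). Leaving out vehicle replicate 3 (0.77) or treated replicate 2 (0.78) of SW48 did the same. For ZNF672 they were quantile normalization (0.57), median-centred scaling (0.62) and leaving out vehicle replicate 3 of 23132/87 (0.63).

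**Figure D5:**
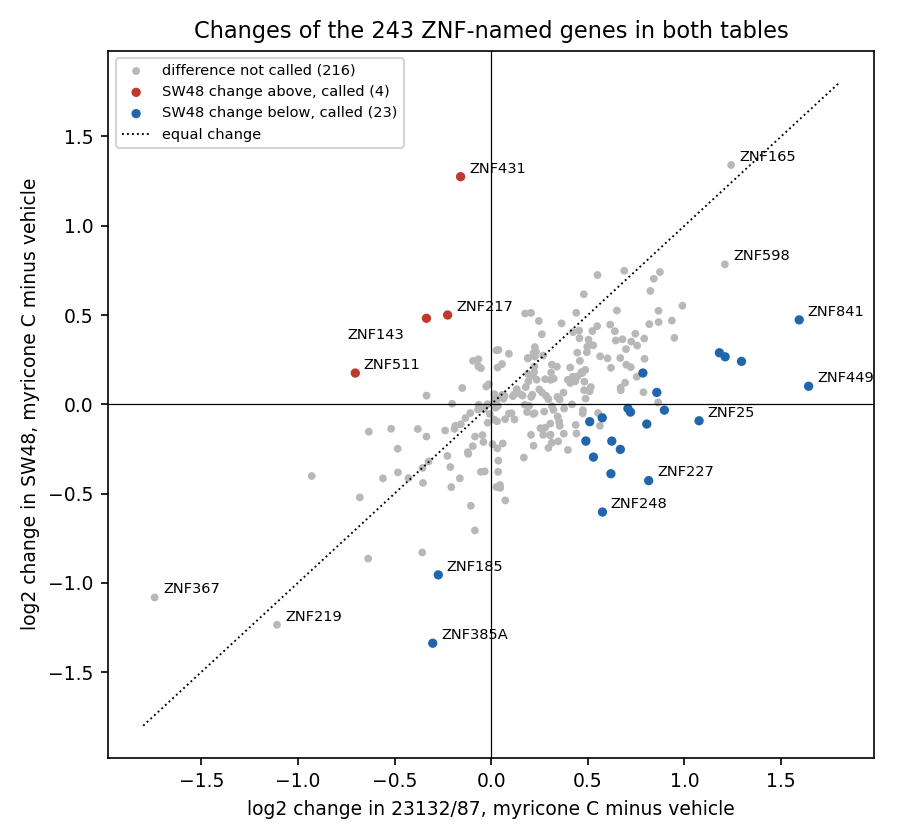
Log2 change with myricone C in 23132/87 (horizontal) and SW48 (vertical) for the 243 ZNF-named genes in both tables, with the dotted line marking equal change. Blue genes (23) had a called difference with SW48 below 23132/87 and red genes (4) with SW48 above, and most of the blue genes lie right of 0 and near the horizontal axis.

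Among members with the largest called differences, ZNF449 was at 2.87, 4.17 and 3.69 with vehicle in SW48 and 3.61, 3.39 and 4.72 with myricone C, with overlapping groups, against the rise in 23132/87 given above. The difference was -1.54 ± 0.21 (SE, limma adjusted p = 0.000587). ZNF25 was at 1.01, 1.2 and 1.02 with vehicle in 23132/87, the lowest vehicle mean of any member there, and 3.88, 3.18 and 3.12 with myricone C. In SW48 it was at 3.50, 4.08 and 3.69 and then 3.88, 3.55 and 2.99, and the treated 23132/87 libraries lay within the SW48 range, with the caution that the tables were made separately (difference -1.17 ± 0.18). ZNF248 rose in 23132/87 from 2.73, 3.74 and 2.67 to 6.04, 5.74 and 3.51, with replicate 3 inside the vehicle range, and fell in SW48 from 9.51, 10.4 and 8.38 to 7.04, 5.31 and 5.29 (difference -1.18 ± 0.25). Its 23132/87 call (0.58) did not hold under quantile normalization (0.49), nor when vehicle replicate 1 (0.52) or 3 (0.51), or treated replicate 1 (0.46) or 2 (0.49), was left out. ZNF227 was at 6.02, 3.75 and 3.12 and then 7.07, 9.56 and 7.77 in 23132/87, and at 2.15, 3.32 and 2.90 and then 3.59, 1.09 and 1.28 in SW48. Its difference of -1.24 ± 0.37 (adjusted p = 0.0387) was lost under both other scalings (-1.07 and -1.15) and without replicate 2 or 3 of any of the 4 groups (-1.27 to -1.03). Without myricone C replicate 1 the gene was called lower in SW48 (-0.79).

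In the other direction, ZNF431 was at 2.68, 2.99 and 4.30 with vehicle and 3.25, 2.58 and 2.68 with myricone C in 23132/87, with no call, and its difference was 1.43 ± 0.23 (SE, limma adjusted p = 0.00140). ZNF511 was at 28.4, 28.7 and 29 and then 16.7, 16.2 and 18.9 in 23132/87, and at 51.7, 33.1 and 44.6 and then 45.8, 47.4 and 50.9 in SW48 (difference 0.88 ± 0.19). ZNF143, an activator at promoters of coding and small nuclear RNA genes, was at 9.34, 9.13 and 8.28 and then 8.18, 6.65 and 5.90 in 23132/87, a change of -0.33 that was not called (adjusted p = 0.0672). In SW48 it was at 7.33, 6.07 and 6.78 and then 7.52, 11.7 and 10.6. The SW48 call (0.48, adjusted p = 0.0490) was lost when any vehicle library (0.42 to 0.54), or treated replicate 2 (0.36) or 3 (0.43), was left out. The fall in 23132/87 was called after quantile normalization (-0.39) and without treated replicate 1 (-0.45). The difference of 0.82 ± 0.22 was lost when vehicle replicate 1 (0.79) or 2 (0.80), or treated replicate 2 (0.80) or 3 (0.72), of 23132/87 was left out, and likewise for vehicle replicate 2 (0.75) and treated replicates 2 (0.70) and 3 (0.76) of SW48. ZNF217, an oncogene of the CtBP and CoREST corepressor complexes, was at 2.12, 2.31 and 2.56 and then 1.75, 1.76 and 2.04 in 23132/87, without a call, and at 4.73, 5.47 and 5.28 and then 7.13, 8.43 and 7.59 in SW48 (0.50 ± 0.14). Its SW48 call ended when vehicle replicate 1 (0.45) or treated replicate 2 (0.44) was left out. Its difference was 0.73 ± 0.17 (adjusted p = 0.0121).

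By role, the 10 genes listed as silencers of transposons or guardians of imprints had 6 members in the 23132/87 table and 5 in that of SW48. In 23132/87, 2 rose and none fell, with a median of 0.45 against 0.01 for all genes. In that line 23.3% of all genes and 39.5% of all members rose, and 23.2% and 5.59% fell. ZNF274, a KRAB protein that brings SETDB1 to the 3' ends of ZNF genes, was at 5.52, 5.11 and 4.57 with vehicle and 9.99, 9.33 and 7.81 with myricone C (0.72 ± 0.13 SE, n = 3 per group, limma adjusted p = 0.00168). ZNF417, which binds retroviral primer binding sites, was at 2.04, 1.76 and 3.10 and then 5.38, 3.84 and 3.70 (0.69 ± 0.18), a call lost without vehicle replicate 2 (0.58). ZNF91, the repressor of SVA elements, was at 4.93, 6.55 and 3.21 and then 6.89, 6.57 and 7.73, not called (0.49 ± 0.20, adjusted p = 0.0630) except without vehicle replicate 2 (0.69), and ZNF445, which guards imprints, was at 2.66 ± 0.107 and 2.62 ± 0.193 (SD, n = 3). In SW48 none of the 5 was called as deposited, at a median of 0.12, where 10.1% of all genes rose and 19.2% fell. ZNF274 was called higher in SW48 with median-centred scaling (0.44). There ZNF274 was at 2.24 ± 0.239 and 3.14 ± 0.413, ZNF91 at 2.33 ± 0.625 and 1.85 ± 0.367 and ZNF445 at 5.29 ± 0.750 and 5.29 ± 0.668.

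The 10 genes of RNA, ribosome and spindle functions were listed in full in both lines. In 23132/87, 3 rose (ZNF598, ZNF622 and ZNF593) and 2 fell (ZNF207 and ZNF326), where 23.3% of all genes rose and 23.2% fell. In SW48 ZNF598 rose and ZNF207 fell, where 10.1% of all genes rose and 19.2% fell. ZNF598, the ubiquitin ligase that marks collided ribosomes (chromosome 16, 1997654 to 2009823, minus strand), was at 15.3, 16.9 and 12.9 with vehicle and 34.4, 37.7 and 35.6 with myricone C in 23132/87 (1.21 ± 0.12 SE, n = 3 per group, limma adjusted p = 3.86e-05). In SW48 it was at 18.5, 13.3 and 14.8 and then 21.3, 28.0 and 34.1 (0.78 ± 0.18, adjusted p = 0.00721). The groups lay apart in both lines, and the difference between lines was not called (-0.42 ± 0.23, adjusted p = 0.229). ZNF622, a maturation factor of the large ribosomal subunit, was at 17.7, 18.6 and 15.6 and then 30.0, 20.8 and 22.4 in 23132/87 (0.46 ± 0.14), a call that ended when vehicle replicate 3 (0.39) or treated replicate 1 (0.31) was left out. In SW48 it was at 15.3 ± 0.946 and 18.6 ± 4.06 (SD, n = 3), not called except without treated replicate 1 (0.42). ZNF207, the BUB3 partner that helps assemble the spindle, fell by like amounts in the 2 lines as given above (difference 0.01 ± 0.14, adjusted p = 0.960).

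Of 24 transcription factors and coregulator partners without a KRAB domain, 18 were listed in each line. In 23132/87, 2 rose and 4 fell at a median of -0.06, where 23.3% of all genes rose and 23.2% fell. In SW48, 5 rose and 1 fell at a median of 0.06, where 10.1% rose and 19.2% fell. The falls in 23132/87 were ZNF219, ZNF503, ZNF512B and ZNF703, and the rises ZNF410 (0.36), an activator of CHD4, and ZNF532 (0.35). ZNF503 was at 5.37, 5.83 and 5.14 with vehicle and 1.72, 3.20 and 3.27 with myricone C and was not listed in SW48. Its NET family relative ZNF703 was at 13.6, 19.1 and 17.3 and then 10.0, 11.5 and 13.2 in 23132/87 (-0.48 ± 0.15 SE, n = 3 per group, limma adjusted p = 0.0221), a call lost when vehicle replicate 2 (-0.38) or 3 (-0.45), or treated replicate 1 (-0.39) or 2 (-0.48), was left out. In SW48 ZNF703 was at 24.1 ± 2.07 and 20.4 ± 4.35 (SD, n = 3) and not called. The rises in SW48 were ZNF143, ZNF217, ZNF410, ZNF148 (0.39) and ZNF516, a partner of PRDM16 in brown fat, at 2.70, 3.45 and 2.84 and then 4.16, 5.00 and 5.41 (0.55 ± 0.15). The ZNF516 call was lost when vehicle replicate 1 (0.50) or 3 (0.52), or treated replicate 2 (0.53) or 3 (0.48), was left out. ZNF395 was not called in either line (0.22 ± 0.10 and -0.23 ± 0.15).

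Several genes of the KRAB corepressor machinery were lower with myricone C. Of 23 genes on that list, all listed in both tables, none rose in either line, 13 fell in 23132/87 (median log2 change -0.50) and 12 fell in SW48 (median -0.38), and 11 fell in both. Of all genes 23.2% and 19.2% fell. The remaining 10 and 11 genes had no call, and 7 of the 23 in 23132/87 and 3 in SW48 had a log2 change above 0, among them MORC2, whose treated libraries all lay above the vehicle libraries in both lines without a call. TRIM28, the KRAB corepressor itself, went from a mean of 114 to 70.1 in 23132/87 (-0.69 ± 0.11 SE, n = 3 per group, limma adjusted p = 0.000620) and from 117 to 90.0 in SW48 (-0.38 ± 0.12, adjusted p = 0.0300). UHRF1, which maintains DNA methylation, went from 29 to 4.69 (-2.40 ± 0.15) and from 47.3 to 21.0 (-1.15 ± 0.16), and the methyltransferase DNMT1 from 43.8 to 14.3 (-1.56 ± 0.10) and from 53.0 to 34.3 (-0.62 ± 0.12). The H3K9 methyltransferase gene SUV39H1 and the HP1 genes CBX1, CBX3 and CBX5 also fell in both lines. SETDB1 was not called in either (0.20 ± 0.12, adjusted p = 0.188, and -0.07 ± 0.12, adjusted p = 0.687). UHRF1, DNMT1 and SUV39H1 are also genes of dividing cells, and transcript levels of these factors do not measure silencing at any site.

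Genes of related finger families under other names, added after the data were seen, gave mixed counts in 23132/87. Of 13 ZSCAN genes 7 rose and 1 fell (median 0.45), 4 of 9 ZFP genes and 2 of 5 ZKSCAN genes rose with no fall, and of 33 ZBTB genes 5 rose and 1 fell, where 23.3% of all genes rose and 23.2% fell. In SW48 none of 11 ZSCAN and none of 5 ZKSCAN genes was called, 1 of 9 ZFP genes rose and 1 fell, and 3 of 37 ZBTB genes rose and 2 fell, where 10.1% of all genes rose and 19.2% fell. With so few genes per family these counts are descriptions.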

How the data were processed

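The deposited tables, 1 per line, give the authors' signal for each gene and library. Reads passed through FastQC and STAR with GRCh38, per the submitters' processing notes, which give no versions, and libraries were made with a stranded mRNA kit, per the labels' protocols. How reads were counted, with which strand setting and into which unit, is not given in the sources used here. Since the values are not counts, log2(signal + 1) was tested with limma 3.58.1 (trended prior variance, R 4.3.3), a scale that understates changes of low genes. Genes with a mean of at least 1 entered, which every listed gene met. P-values were Benjamini-Hochberg adjusted over the whole table, and the threshold was 0.05. The ± of a change is its moderated standard error. A line's 6 libraries formed 1 fit. Differences between lines are the interaction of line and treatment over all 12 libraries, for 10252 genes matched by Ensembl identifier.

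The members, role lists and level classes were chosen with earlier results of these data known. Genes were named by rule: in each line the 6 largest called rises, the 6 largest called falls and the 3 highest vehicle means, the 4 largest called differences each way, the 2 largest called changes of each role list, and 10 listed genes always named (ZNF91, ZNF274, ZNF445, ZNF143, ZNF217, ZNF703, ZNF395, ZNF598, ZNF622 and ZNF207). Others were named after their values were seen. Positions, GC content and lengths came from GENCODE 29 on GRCh38, with 282 and 290 members holding a transcript, and promoters from RefSeq on GRCh38.p14. KRAB domains and finger numbers were not analysed here. Replicates are labelled biological, and SW48 myricone C replicates carry their title numbers. The fits were tested on simulated data. Alternatives were 2 scalings, pseudocounts of 0.1 and 5, no filter and a stricter one, no trend, 1 joint fit, replicate blocks, pseudogene names left out, level classes by the overall mean, and leaving out each library.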

Additional observations from a re-analysis of the deposited data

Results flagged for a closer look

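Of the members named by the rule, 13 responded differently in the 2 lines by the line-by-treatment test (limma, adjusted p under 0.05), given as the SW48 log2 change minus that in 23132/87. The difference was below 0 for ZNF449 (-1.54), ZNF227 (-1.24), ZNF248 (-1.18), ZNF25 (-1.17), ZNF841 (-1.12), ZNF181 (-1.05), ZNF385A (-1.04), ZNF277 (-0.94) and ZNF185 (-0.68). It was above 0 for ZNF431 (1.43), ZNF511 (0.88), ZNF143 (0.82) and ZNF217 (0.73). ZNF449, ZNF841, ZNF181, ZNF277, ZNF25 and ZNF227 rose in 23132/87 without a call in SW48, ZNF248 rose in 23132/87 and fell in SW48, and ZNF385A and ZNF185 fell in SW48 without a call in 23132/87. ZNF431, ZNF143 and ZNF217 rose in SW48 without a call in 23132/87, and ZNF511 fell in 23132/87 without a call in SW48. The ZNF185 difference was lost under both other scalings (-0.66 and -0.59), with a pseudocount of 5 (-0.45) and without replicate 2 or 3 of any of the 4 groups (-0.71 to -0.57).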

How the results depend on the processing

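In 23132/87 the excess of rises over falls among members held under each alternative run, and leaving out 1 library moved the counts over 98 to 124 called, 87 to 108 higher and 11 to 16 lower, and the median change over 0.26 to 0.31. In SW48 the ranges were 25 to 54 called, 13 to 31 higher and 12 to 23 lower, with medians of 0.0038 to 0.050, and for the difference between lines 15 to 33 called, 3 to 5 above and 12 to 28 below 0. Quantile normalization gave medians of 0.23 in 23132/87 and 0.090 in SW48 and 17 called differences, 12 of them below 0. Median-centred scaling gave 12 lower and a median of 0.12 in SW48 and 14 differences below 0. It moved the median difference of all genes from -0.09 to 0.004. The 23132/87 median was 0.35 with a pseudocount of 0.1 and 0.17 with 5. A minimum of 10 in at least 3 libraries left 58, 68 and 37 members to test. In 23132/87, 40 were called (36 higher, 4 lower, median 0.39). That was 62.1% higher and 6.90% lower, against 24.5% and 29.2% of all genes. In SW48, 19 were called (14 higher, 5 lower, median 0.12), or 20.6% and 7.35%, against 13.1% and 26.0% of all genes. For the difference, 3 were called (1 above, 2 below), or 2.70% and 5.41%, against 6.73% and 7.39%. Level classes by the overall mean gave, in 23132/87, 16 higher below 3, and 30 higher and 3 lower at 10 or more, and in SW48 3 higher and 1 lower below 3 and 5 lower at 10 or more.

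Same-numbered replicates shared no deviation in every pair (correlations -0.24, 0.11 and -0.27 in 23132/87 and -0.07, -0.18 and -0.14 in SW48), so the numbers were not read as pairing. With the replicate number as a block, 118 members were called in 23132/87 (104 higher, 14 lower), 35 in SW48 (20 higher, 15 lower) and 17 for the difference (14 below 0). Among named genes, that block ended the SW48 calls of ZNF143 (0.48) and ZNF672 (-0.40). It also ended the called differences of ZNF143 (0.82), ZNF185 (-0.68) and ZNF227 (-1.24). A further run took the block from the deposited SW48 column headers, whose numbering differs from the titles. SW48 vehicle replicate 1 and myricone C replicate 3 had no partner number and were left out of it. In that run 34 were called in SW48 (14 higher) and 17 for the difference (14 below 0), and the uncalled ZNF449 change in SW48 was -0.13. That run, with its block and fewer libraries, also left ZNF217 without a call in SW48 (0.46, adjusted p = 0.0767, limma) and for the difference (0.68, adjusted p = 0.0725). The SW48 calls of ZNF207 (-0.38), ZNF672 (-0.37), ZNF674 (0.61), ZNF516 (0.43) and ZNF143 (0.49) were lost in it too. So were the called differences of ZNF185 (-0.71) and ZNF227 (-1.22).

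Changes of sign were found only in values without a call. Leaving out 1 library moved the difference between lines over -0.20 to 0.52 for ZNF165, -0.041 to 0.10 for ZNF207, -0.32 to 0.15 for ZNF219, -0.063 to 0.11 for ZNF445, -0.12 to 0.12 for ZNF706 and -0.017 to 0.25 for ZNF92. It moved the SW48 change over -0.10 to 0.27 for ZNF417, -0.081 to 0.10 for ZNF445, -0.014 to 0.19 for ZNF449 and -0.060 to 0.18 for ZNF706, and the 23132/87 change over -0.062 to 0.0077 for ZNF445 and -0.0019 to 0.10 for ZNF706. The difference was also -0.0098 for ZNF207 after quantile normalization, 0.086 for ZNF706 with median-centred scaling and -0.044 for ZNF92 with a pseudocount of 5. Read depth is unknown, so no counting error can be given, and members near the lowest listed value of 1 are the least certain.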
